A study of Saccharomyces cerevisiae with 12 samples.

Results

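The head module of the yeast Mediator complex was followed here through the transcripts of 8 genes, MED6, MED8, MED11, SRB4, SRB5, SRB2, SRB6 and ROX3. They were picked by gene symbol in the array annotation, which gave 1 probe per gene, or 8 of the 6388 gene probes on the array, each printed as 2 spots that were averaged. MED6 was singled out because its values in the tagged strains lay far from wild type. For MED6, the tagged strains against wild type are therefore given as a description without a test, and calls in those comparisons are counted over the other 7 genes.

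Mediator is a large coactivator that carries signals from DNA-bound regulators to RNA polymerase II at promoters. Its head module contacts the polymerase and the general initiation factors, its middle and tail reach toward activators, and a separable kinase module can block the contact with the polymerase. MED6 and SRB4 are essential head subunits, and SRB4 (also called MED17) forms the core on which the head assembles. SRB2 (MED20) and SRB5 (MED18) form a movable pair held by MED8, SRB6 (MED22) pairs with MED11, and ROX3 (MED19) lies where the head meets the middle, so that some schemes place it in the middle.

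The data were 12 two-colour arrays of mRNA from Saccharomyces cerevisiae, with 2 arrays (a and b, from independent colonies) in each of 6 groups. The 3 strains were wild type (HHY168), Mot1-FRB (YGP200) and NCB2-FRB (YGP201), each without and with rapamycin at 1 µg/ml for 60 min in complete synthetic medium with 2% glucose. Every array carried the cRNA of 1 culture together with a shared reference, the cRNA of untreated wild type, in the opposite dye, with the culture in Cy3 for every a array and in Cy5 for every b array. The question in the series title is how closely Mot1, which removes the TATA-binding protein from DNA, and NC2β, the NCB2 product and a subunit of a repressor that binds the same protein, work together in transcription.

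FRB is a domain that binds FKBP12 when rapamycin is present. HHY168 is known as the parent strain of the anchor-away system. It carries a rapamycin-resistant allele of TOR1, lacks FPR1, and has FKBP12 fused to the ribosomal protein RPL13A, so that a tagged protein leaves the nucleus when rapamycin is added. The labels give the strain names and not these alleles. Each tag was present in 1 strain, so that an effect of the tag cannot be told apart from any other difference between that strain and wild type. MOT1 transcript was 0.67 ± 0.095 (log2 ± SE) higher in untreated Mot1-FRB than in untreated wild type (limma adjusted p = 0.021), and NCB2 transcript was -0.65 ± 0.18 in untreated NCB2-FRB against wild type (adjusted p = 1.00, and 0.000273 with the replicate block). A transcript level does not show whether the protein was tagged or moved.

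Levels are given as log2(culture/reference), where 0 means the amount in the reference, and differences are given as log2 ± SE from limma with 2 arrays per group. Benjamini-Hochberg adjusted p-values cover all 6388 probes of a comparison, and rose and fell are used only for an adjusted p under 0.05. The ratios are relative to the other transcripts on the same array, so a change in total mRNA per cell is not seen. Array a of treated wild type was dim, with a median culture signal of 70.0 against 412 to 1230 on the other 11 and 71.3% of probes above the blank spots against 95.6% to 99.5%. On it the culture signals of MED8, MED11 and SRB6 were not above percentile 95 of the blanks. SRB2 was at 1.11 times that level and MED6 at 1.18 times. In the reference channel MED8, MED11, SRB5 and SRB6 were below that percentile of its blanks, and SRB2 was at 1.06 times. The replicate letter is also the dye, and same-lettered arrays deviated together, so values with the letter as a block are given where they change a call.

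MED6 had by far the widest range of the 8 genes. In untreated wild type its log2(culture/reference) was 0.00 on array a and 0.07 on array b, and in treated wild type it was 0.01 and 0.06. In Mot1-FRB it was 1.21 and 1.40 without rapamycin, and 1.61 and 1.62 with it. NCB2-FRB gave 1.23 and 1.37 without rapamycin, and 1.56 and 1.55 with it. All 8 arrays of the tagged strains thus lay above all 4 wild-type arrays, and in both tagged strains the treated arrays lay above the untreated ones.

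**Figure D1:**
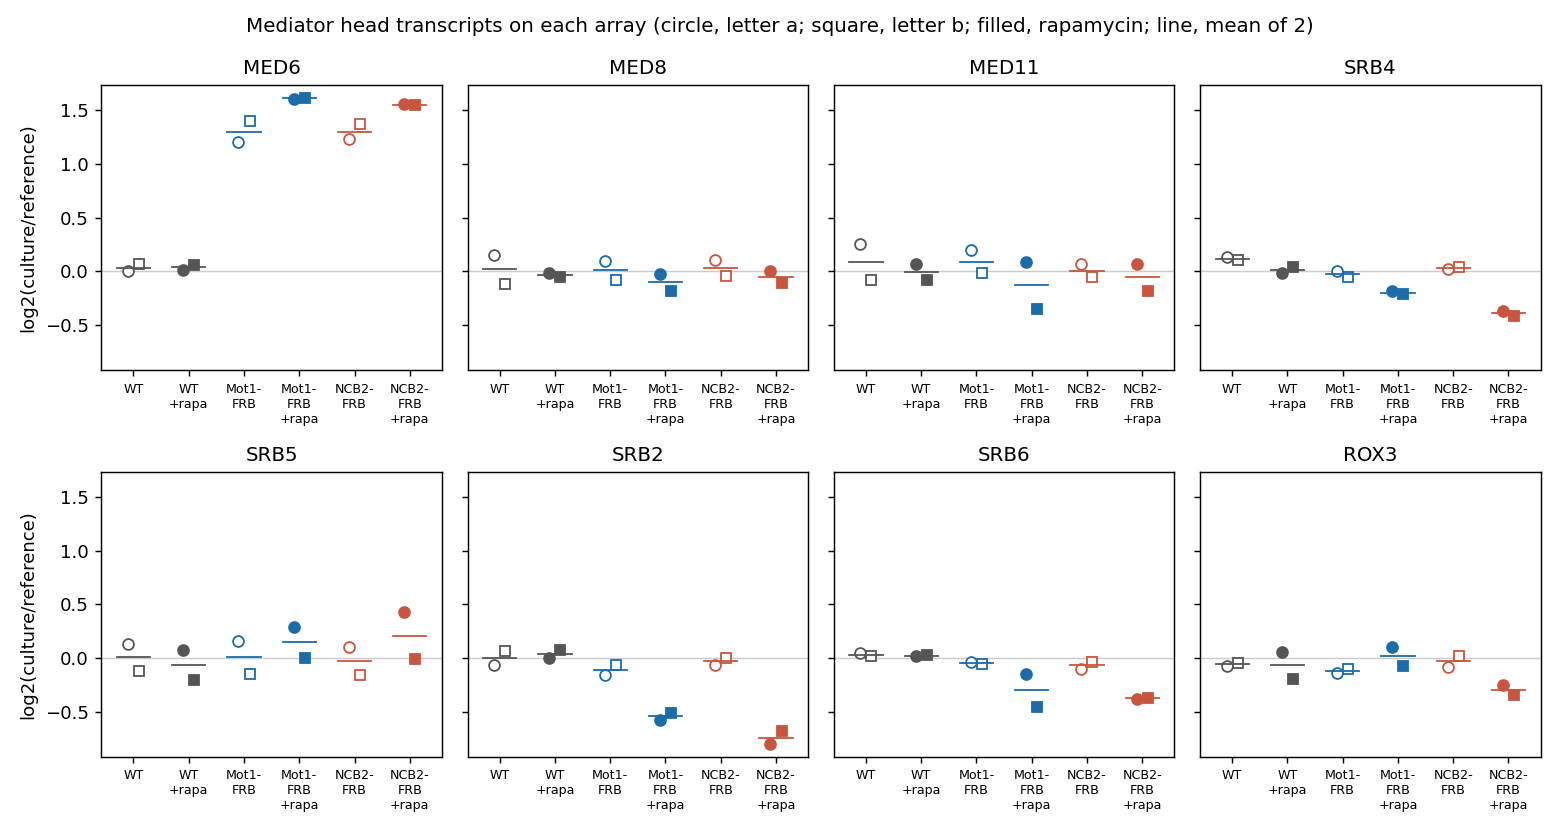
Level of each head transcript on every array as log2(culture/reference), with circles for letter a, squares for letter b, filled symbols for rapamycin and a line at the mean of the 2 arrays. MED6 sits near 0 in wild type and between 1.21 and 1.62 in the tagged strains, while the group means of the other 7 genes stay between -0.74 and 0.21.

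The MED6 group means fell into an order of 3 steps. Wild type stood at 0.034 ± 0.044 (SD, n = 2) without rapamycin and 0.035 ± 0.031 with it, and these did not differ beyond their spread. Untreated NCB2-FRB and Mot1-FRB, at 1.30 ± 0.097 and 1.30 ± 0.13, were also within their spread of each other. Treated NCB2-FRB at 1.55 ± 0.0070 and treated Mot1-FRB at 1.61 ± 0.0068 were the highest. Their gap was larger than the SD of either group and smaller than the SE of 0.076 that pools the spread of all 6 groups.

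The tagged strains exceeded untreated wild type by 1.27 ± 0.076 in Mot1-FRB, which is 2.41-fold, and by 1.27 ± 0.076 in NCB2-FRB. Among the 6388 probes, MED6 was the 4th highest in the first comparison, where the small heat shock protein gene HSP26 led with 1.84. In untreated NCB2-FRB it was the highest of all, ahead of FET3 at 1.04. With rapamycin, MED6 was 1.58 above treated wild type in Mot1-FRB and 1.52 in NCB2-FRB, but with many other genes changed its rank there was 104 and 58. Leaving out the dim wild-type array left these last differences at 1.55 and 1.50. Both comparisons in a treatment use the same wild-type arrays.

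The untreated excess of MED6 was nearly the same in both tagged strains. Mot1-FRB minus NCB2-FRB was 0.00 ± 0.076, with a 95% interval of -0.17 to 0.17 (adjusted p = 1.00). Within a letter, and so within a dye orientation, the excess over untreated wild type was 1.20 on a and 1.33 on b for Mot1-FRB, and 1.23 and 1.30 for NCB2-FRB.

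The scanner signals of MED6 before any normalization separated the tagged strains from wild type as well. On the a arrays, where the culture was in Cy3, the MED6 culture signal was 0.540 times the reference signal in untreated wild type and 0.624 times in treated wild type. The corresponding ratios were 1.44 and 1.68 for Mot1-FRB, and for NCB2-FRB 1.35 and 1.44. The dye sets the level of these raw ratios, so they can be compared only within a letter. On the b arrays, with the culture in Cy5, the ratios of untreated and treated cells were 1.75 and 2.04 (wild type), 6.55 and 5.38 (Mot1-FRB), and 5.36 and 6.76 (NCB2-FRB). In either orientation every tagged-strain array exceeded both wild-type arrays. The raw ratios did not share the order of the normalized values within Mot1-FRB, since its treated b array was below its untreated one. MED6 was above the blanks in both channels of all 12 arrays and saturated on none, and its 2 spots differed by at most 0.074 on the log2 scale.

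**Figure D2:**
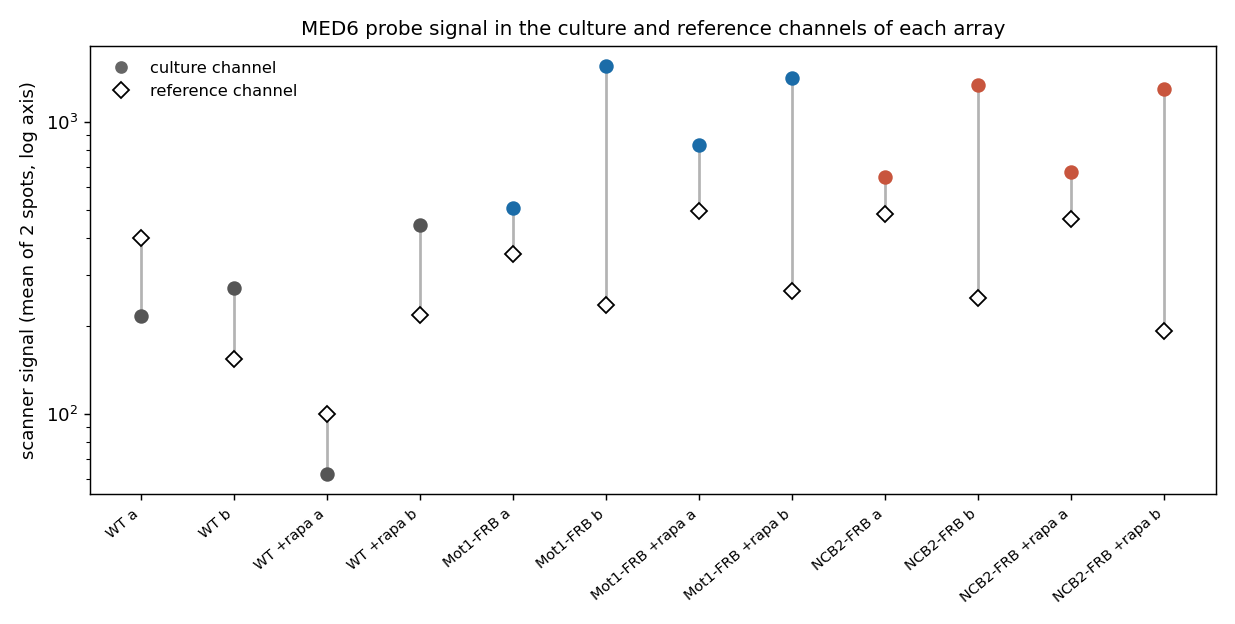
Scanner signal of the MED6 probe in the culture channel (filled circles) and the reference channel (open diamonds) of each array, mean of 2 spots, on a log axis without normalization. The culture signal lies above the reference on all 8 arrays of the tagged strains, from 1.35 to 6.76 times, and the dim array of treated wild type a shows the lowest signals in both channels.

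The other 7 head genes lay close to wild type in untreated cells, far from the MED6 values. In Mot1-FRB, 0 of 7 differed from untreated wild type by the limma test, against 0.971% of all probes. At an unadjusted p under 0.05 the count was 1, against 634 of 6388 probes. That gene was SRB4, at -0.14 ± 0.054 (adjusted p = 0.406). The 7 differences ran from -0.14 to 0.01, with a median of -0.06 against 0.00 for all probes. In NCB2-FRB also 0 of 7 differed, against 0.0157% of all probes. None of the 7 there had an unadjusted p under 0.05, against 127 of 6388 probes, and the 7 differences ran from -0.10 to 0.03. The arrays of tagged strain and wild type did not overlap for SRB4, SRB6 and ROX3 in Mot1-FRB, 3 of 7 against 34.9% of all probes, and for SRB4 and SRB6 in NCB2-FRB, 2 of 7 against 23.6%. Between the untreated tagged strains 0 of 8 head genes differed, against 0.172% of all probes. At an unadjusted p under 0.05 it was 0 of 8, against 428 of 6388 probes.

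The rest of Mediator also lay close to wild type in untreated cells. Of 17 middle, scaffold, tail and kinase-module genes, 0 differed from wild type in either tagged strain. Over all probes 0.971% differed in Mot1-FRB and 0.0157% in NCB2-FRB. None of the 17 had an unadjusted p under 0.05, against 634 and 127 of 6388 probes. The differences of the 17 lay between -0.13 and 0.08 in both strains, so MED6 stood alone among 25 Mediator genes by size. CSE2, a middle gene, had a culture signal above the blanks on only 1 array and carries little weight in these counts.

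**Figure D3:**
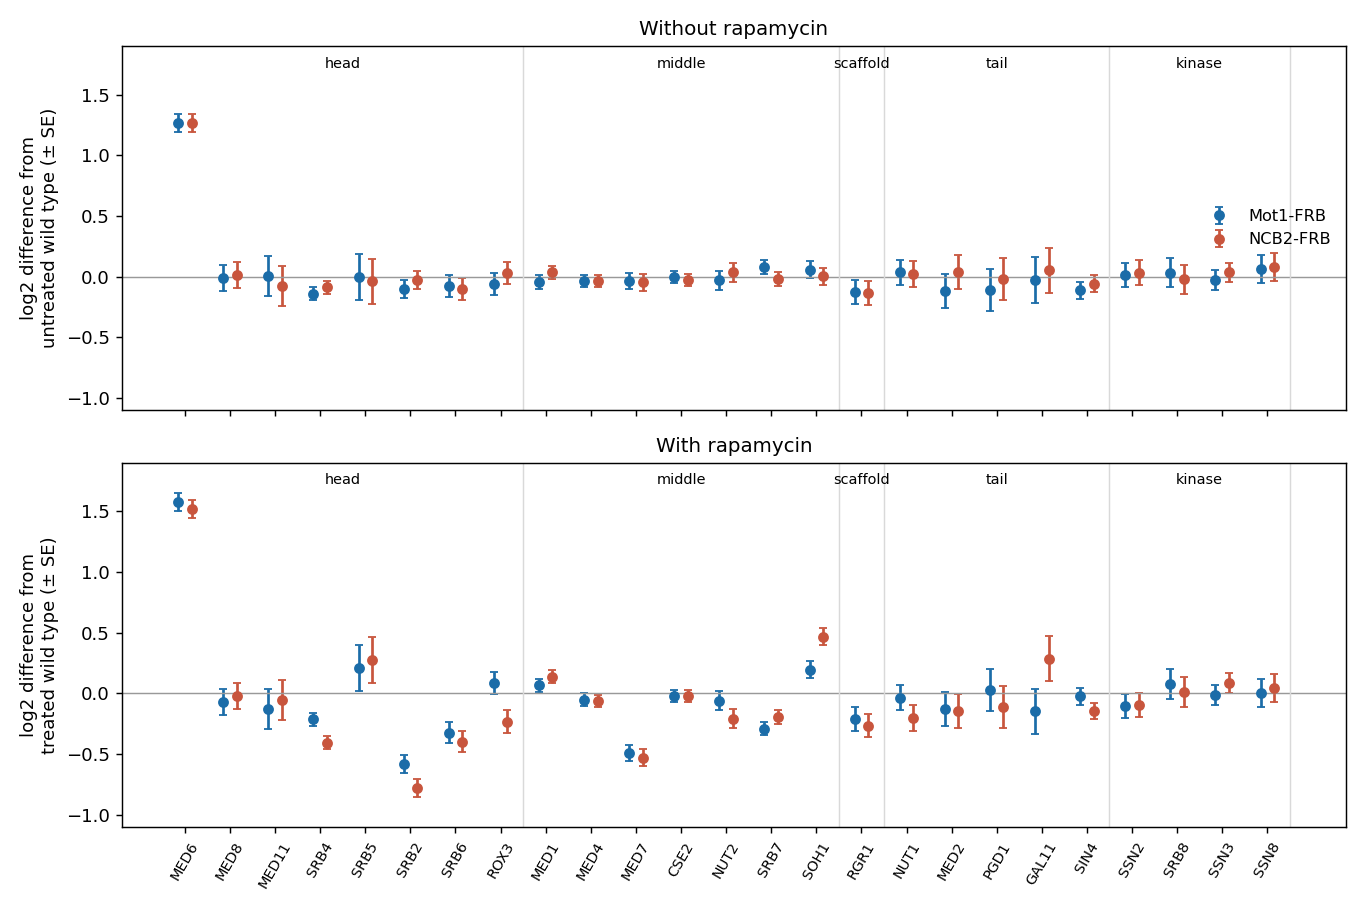
Log2 difference ± SE of 25 Mediator genes in Mot1-FRB and NCB2-FRB against wild type, without rapamycin (upper panel) and with it (lower panel), grouped by module. Without rapamycin MED6 is at 1.27 in both strains and the other genes lie between -0.14 and 0.08. With rapamycin SRB2, SRB4, SRB6, MED7 and SRB7 passed the limma test below 0 in both strains, and SOH1 above 0. MED6 was not tested. Of the 17 genes outside the head 3 passed in each strain, against 44.9% of all probes for Mot1-FRB and 42.2% for NCB2-FRB.

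The genes on either side of MED6 (YHR058C) had smaller differences in untreated cells. RefSeq R64 places CPR2 (YHR057C), a cyclophilin gene, on one side and FYV4 (YHR059W) on the other. CPR2 differed from untreated wild type by -0.14 ± 0.075 in Mot1-FRB (limma adjusted p = 0.623) and by 0.03 ± 0.075 in NCB2-FRB (adjusted p = 1.00). FYV4 differed by 0.23 ± 0.098 (adjusted p = 0.471) and 0.01 ± 0.098 (adjusted p = 1.00). Under rapamycin FYV4 rose by 0.44 in Mot1-FRB (adjusted p = 0.0073) and by 0.73 in NCB2-FRB (adjusted p = 0.000403), whereas CPR2 fell by 0.44 in NCB2-FRB (adjusted p = 0.00151) and had -0.21 in Mot1-FRB (adjusted p = 0.0514, and 0.00733 with the replicate block).

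In wild type, the strain without an FRB tag, rapamycin moved none of the head genes past the threshold. The limma test called 0 of 8, as it called 0% of all probes, and 0 of the 8 had an unadjusted p under 0.05, against 120 of 6388 probes. The 8 differences ran from -0.11 for SRB4 to 0.04 for SRB2, with MED6 at 0.00 ± 0.076. The arrays of SRB4 did not overlap, at 0.13 and 0.10 untreated and -0.01 and 0.03 treated, as for 24% of all probes. These values use the dim array.

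In both tagged strains rapamycin moved the head genes in opposite directions, with MED6 up and SRB2, SRB4 and SRB6 down. In Mot1-FRB 4 of 8 passed the limma test, 1 up and 3 down, where 37.3% of all probes passed, 22% up and 15.3% down. In NCB2-FRB 5 of 8 passed, 1 up and 4 down, where 41% of all probes passed, 22.8% up and 18.2% down. Without MED6, 3 of 7 passed in Mot1-FRB and 4 of 7 in NCB2-FRB, all downward. The head-gene calls were all lost with external control centring in place of loess, and all but that of SRB2 in NCB2-FRB with median centring. The median difference of the 8 genes was -0.14 in Mot1-FRB and -0.18 in NCB2-FRB, against 0.01 and -0.01 for all probes. Since so many probes moved and the genes are few, the share of head genes called is not read as special to them.

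MED6, already high in the tagged strains, was higher still with rapamycin. The choice of MED6 used the treated and untreated arrays of these strains, so its p-values here are a description and not support. The rise was 0.31 ± 0.076 in Mot1-FRB, or 1.24-fold (limma adjusted p = 0.0111), and 0.25 ± 0.076 in NCB2-FRB, or 1.19-fold (adjusted p = 0.0245). Both calls were lost with median centring (adjusted p = 0.24 and 0.438) and with loess followed by external control centring (adjusted p = 0.149 and 0.194), and external control centring alone gave 0.12 and 0.16 with no call. The call in Mot1-FRB was also lost without its untreated array a (0.21, adjusted p = 0.0883) or its treated array b (0.30, adjusted p = 0.0548). In NCB2-FRB it was lost without untreated array a (0.18, adjusted p = 0.164), treated a (adjusted p = 0.0751) or treated b (adjusted p = 0.0757).

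SRB2, one of the movable pair, had the largest fall of the 8 genes in both tagged strains. Its levels in wild type were -0.07 and 0.06 untreated and 0.00 and 0.08 treated. In Mot1-FRB they were -0.15 and -0.06 without rapamycin and -0.58 and -0.51 with it. In NCB2-FRB they were -0.06 and 0.00 without rapamycin and -0.80 and -0.68 with it. The 4 treated arrays of the tagged strains lay below the other 8. The difference was -0.44 ± 0.073 in Mot1-FRB, or 1.35-fold lower (limma adjusted p = 0.00167), and -0.71 ± 0.073 in NCB2-FRB, or 1.63-fold lower (adjusted p = 9.84e-05). Leaving out any single array kept both calls.

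SRB5, the partner of SRB2 in the movable pair, did not fall with it. Its levels in NCB2-FRB were 0.10 and -0.16 without rapamycin and 0.43 and -0.01 with it. In Mot1-FRB they were 0.16 and -0.15 without rapamycin and 0.29 and 0.00 with it, and in wild type 0.13 and -0.12, then 0.08 and -0.21. Array b minus array a was between -0.44 and -0.25 in every group, so that treated and untreated groups overlapped while each letter on its own was higher with rapamycin in the tagged strains. The difference was 0.14 ± 0.19 in Mot1-FRB (limma adjusted p = 0.604) and 0.24 ± 0.19 in NCB2-FRB (adjusted p = 0.352). With the replicate letter as a block these adjusted p-values were 0.0389 and 0.00279, and the authors' value table gave 0.23 in NCB2-FRB (adjusted p = 0.00655). With that block, 2 of 8 head genes rose and 4 fell in each tagged strain, where 33.9% of all probes rose and 28.5% fell in Mot1-FRB, and 31.8% rose and 30.8% fell in NCB2-FRB. MED6 was 1 of the 2 that rose.

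SRB4, the core subunit, fell in both tagged strains. Its levels were 0.02 and 0.04 in untreated NCB2-FRB and -0.37 and -0.42 in the treated cells, a difference of -0.43 ± 0.054, or 1.34-fold lower (limma adjusted p = 0.000295). In Mot1-FRB they were 0.00 and -0.05 without rapamycin and -0.19 and -0.22 with it, a difference of -0.18 ± 0.054, or 1.13-fold lower (adjusted p = 0.028). The groups did not overlap in either strain. The call in Mot1-FRB was lost without any 1 of the 4 Mot1-FRB arrays (adjusted p = 0.0623 to 0.15), and the one in NCB2-FRB was kept without any single array.

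SRB6 and its partner MED11 gave less certain values. SRB6 was -0.10 and -0.04 in untreated NCB2-FRB and -0.38 and -0.37 in treated cells, a difference of -0.31 ± 0.088 (limma adjusted p = 0.0213), and the groups were well apart. In Mot1-FRB it was -0.04 and -0.05 without rapamycin, and -0.15 and -0.45 with it, a difference of -0.26 ± 0.088 (adjusted p = 0.0472). The treated Mot1-FRB arrays lay far apart, and on array a the 2 spots of the probe differed by 0.281. The call was lost on leaving out any 1 of the 12 arrays other than treated Mot1-FRB array a. Without treated Mot1-FRB array b the value was -0.10 (adjusted p = 0.302), without an untreated Mot1-FRB array the adjusted p was 0.129 or 0.156, and without an array of the other strains it was 0.0574 to 0.0676. In NCB2-FRB the call was lost without any 1 of its 4 arrays (adjusted p = 0.057 to 0.107).

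MED11, an essential head subunit, was at 0.20 and -0.02 in untreated Mot1-FRB and 0.09 and -0.35 in treated cells. The arrays of the 2 groups overlapped, and the difference was -0.22 ± 0.17 (limma adjusted p = 0.33, and 0.0239 with the replicate block). In NCB2-FRB it was -0.06 ± 0.17 (adjusted p = 0.8). Array b minus array a was between -0.44 and -0.12 in every group.

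MED8, the essential subunit that holds the SRB2 and SRB5 pair, stayed within -0.18 to 0.15 on all 12 arrays. Its rapamycin difference was -0.11 ± 0.11 in Mot1-FRB (limma adjusted p = 0.456) and -0.08 ± 0.11 in NCB2-FRB (adjusted p = 0.585). The 95% intervals ran from -0.35 to 0.13 and from -0.33 to 0.16, so a fall of the size seen for SRB4 in Mot1-FRB was within both.

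ROX3, a regulator first known from the control of hypoxic genes, fell in NCB2-FRB, and its value in Mot1-FRB had the other sign. It was -0.08 and 0.02 in untreated NCB2-FRB and -0.26 and -0.34 in treated cells, a difference of -0.27 ± 0.093 (limma adjusted p = 0.0454). In Mot1-FRB it was -0.14 and -0.10 without rapamycin and 0.11 and -0.07 with it, a difference of 0.14 ± 0.093 (adjusted p = 0.282). The groups did not overlap in either strain, but they were ordered in opposite ways. The call in NCB2-FRB was lost without any 1 of its 4 arrays (adjusted p = 0.0657 to 0.201) or any untreated array of the other strains (adjusted p = 0.062 to 0.0635). The authors' value table gave -0.13 (adjusted p = 0.156).

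By non-overlap, 5 of 8 head genes separated treated from untreated arrays in each tagged strain, against 67.3% of all probes in Mot1-FRB and 66.7% in NCB2-FRB. MED6, SRB2, SRB4, SRB6 and ROX3 were the separated genes in both strains. MED8, MED11 and SRB5, whose a and b arrays were the farthest apart on average, overlapped in both.

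**Figure D4:**
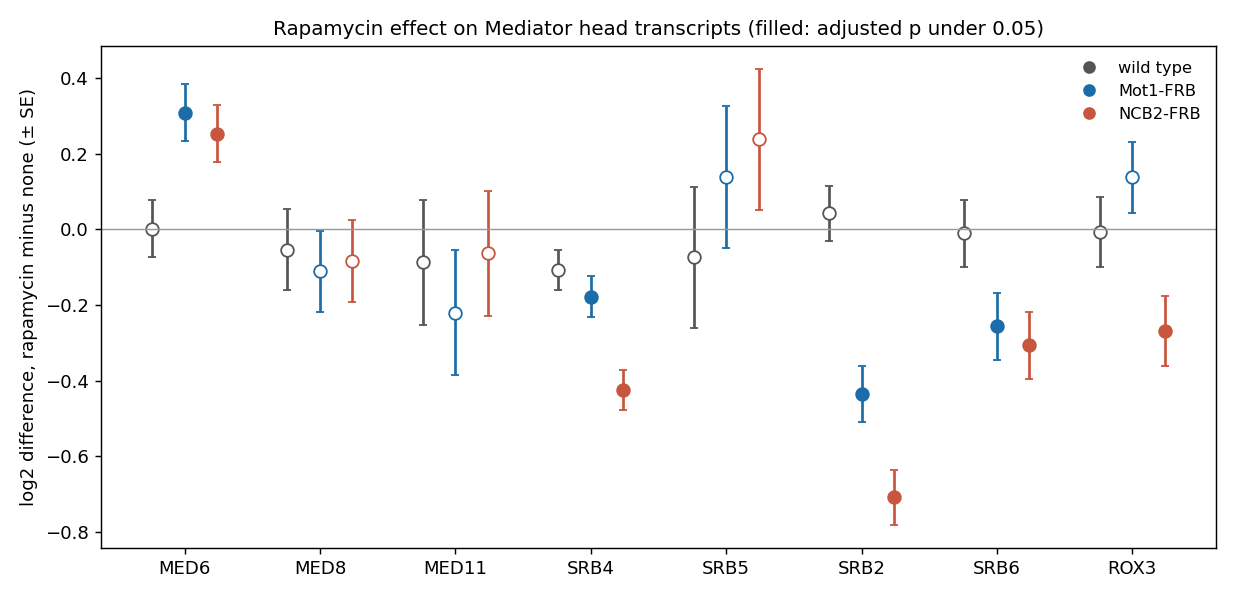
Rapamycin minus none as a log2 difference ± SE for the 8 head genes in each strain, with filled points where the adjusted p was under 0.05. Wild type stays within -0.11 to 0.04, MED6 rises by 0.31 and 0.25 in the tagged strains, and SRB2 falls by 0.44 and 0.71.

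Whether a tagged strain responded differently from wild type was tested by the difference of the 2 rapamycin effects. Both comparisons use the same wild-type arrays. In Mot1-FRB 1 of 8 head genes differed, against 19.4% of all probes: SRB2 at -0.48 ± 0.10 (limma adjusted p = 0.0125). In NCB2-FRB 2 of 8 differed, against 23.5% of all probes: SRB2 at -0.75 ± 0.10 (adjusted p = 0.00129) and SRB4 at -0.32 ± 0.076 (adjusted p = 0.0157). Without the dim array these were -0.52 (adjusted p = 0.0279), -0.79 (adjusted p = 0.00549) and -0.34 (adjusted p = 0.035). The SRB2 call in Mot1-FRB was lost without the untreated Mot1-FRB array b (-0.43, adjusted p = 0.0507), and the SRB4 call without array b of untreated wild type, treated wild type or untreated NCB2-FRB (adjusted p = 0.0541 to 0.0562).

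For MED6 this difference is made up of the treated and untreated comparisons with wild type by which the gene was chosen. Its p-values are therefore given as a description and not as support. The further rise of MED6 was not called different from the wild-type response, at 0.31 ± 0.11 in Mot1-FRB (limma adjusted p = 0.0768) and 0.25 ± 0.11 in NCB2-FRB (adjusted p = 0.126). It was also not called in either strain with median centring or with external control centring. With the replicate block both differences passed, with adjusted p = 0.00987 and 0.022, as they did in the authors' value table, at 0.40 (adjusted p = 0.0175) and 0.31 (adjusted p = 0.0454). In Mot1-FRB it also passed with print-tip loess, at 0.42 (adjusted p = 0.0472), and without untreated array b, at 0.40 (adjusted p = 0.0408). SRB5 passed with the block as well, at 0.21 in Mot1-FRB (adjusted p = 0.0379) and 0.31 in NCB2-FRB (adjusted p = 0.00632), and so did SRB6 in NCB2-FRB, at -0.30 (adjusted p = 0.0497). The authors' value table also passed SRB5 and SRB6 in NCB2-FRB (adjusted p = 0.0222 and 0.0472) and SRB4 in Mot1-FRB, at -0.20 (adjusted p = 0.042). The counts with the block were 3 of 8 in Mot1-FRB, against 44.7% of all probes, and 5 of 8 in NCB2-FRB, against 48.4%. Without MED6, 1 of 7 passed upward and 1 downward in Mot1-FRB, and 1 upward and 3 downward in NCB2-FRB. Shares of all probes by direction were not computed for these differences, so the directions are not read as special to the head genes.

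Between the tagged strains, 0 of 8 rapamycin effects differed by the limma test, against 0.501% of all probes. At an unadjusted p under 0.05 the count was 3, against 892 of 6388 probes. Mot1-FRB minus NCB2-FRB was 0.27 ± 0.10 for SRB2 (adjusted p = 0.267), 0.25 ± 0.076 for SRB4 (adjusted p = 0.179) and 0.41 ± 0.13 for ROX3 (adjusted p = 0.203). All 3 passed with the replicate block, with adjusted p = 0.0129, 0.0236 and 0.0407, where 16.4% of all probes passed. SRB2 also passed in the authors' value table, at 0.23 (adjusted p = 0.0488). The MED6 difference was 0.06 ± 0.11 (adjusted p = 0.927), with a 95% interval from -0.19 to 0.30.

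Set directly against treated wild type, 3 of the 7 other head genes were lower in each treated tagged strain, where 44.9% of all probes differed for Mot1-FRB, 20.6% downward, and 42.2% for NCB2-FRB, 19.4% downward. SRB2 was -0.58 ± 0.073 in Mot1-FRB (limma adjusted p = 0.000233) and -0.78 ± 0.073 in NCB2-FRB (adjusted p = 5.78e-05). SRB4 was -0.21 ± 0.054 (adjusted p = 0.0106) and -0.40 ± 0.054 (adjusted p = 0.000366), and SRB6 was -0.32 ± 0.088 (adjusted p = 0.0152) and -0.40 ± 0.088 (adjusted p = 0.00602). Their arrays did not overlap those of treated wild type, nor did those of ROX3 in NCB2-FRB, which makes 3 of 7 against 72% of all probes and 4 of 7 against 67.2%. The SRB6 call in Mot1-FRB was lost without the dim array (-0.33, adjusted p = 0.0599), treated wild-type array b (adjusted p = 0.066) or treated Mot1-FRB array b (-0.17, adjusted p = 0.0873), and the SRB4 call without treated wild-type array b (adjusted p = 0.067) or treated Mot1-FRB array b (adjusted p = 0.0617). With median centring the SRB4 calls of both strains were lost, at -0.14 in Mot1-FRB (adjusted p = 0.727) and -0.29 in NCB2-FRB (adjusted p = 0.347). Loess followed by external control centring also lost the one in Mot1-FRB (adjusted p = 0.071). With the replicate block 5 of 7 passed in NCB2-FRB, against 63.3% of all probes. SRB5 was 0.27 (adjusted p = 0.0012) and ROX3 was -0.23 (adjusted p = 0.029), and SRB5 also passed in Mot1-FRB, at 0.21 (adjusted p = 0.005).

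Among the 17 other Mediator genes, those that passed the limma test under rapamycin were of the middle module. In Mot1-FRB 0 of 17 rose and 2 fell, 11.8% of the list against 37.3% of all probes. The differences were -0.48 ± 0.067 for MED7 (adjusted p = 0.000613) and -0.37 ± 0.057 for SRB7 (adjusted p = 0.00103), which encode partner subunits of the middle module. In NCB2-FRB 1 rose and 3 fell, 23.5% of the list against 41% of all probes. SOH1 (MED31) rose by 0.38 ± 0.070 (adjusted p = 0.0025), while MED7 fell by 0.50, NUT2 (MED10) by 0.36 and SRB7 (MED21) by 0.17 (adjusted p = 0.000391, 0.0068 and 0.0373). The median over the 17 was -0.045 in Mot1-FRB and -0.07 in NCB2-FRB. With the replicate block 1 rose and 3 fell in Mot1-FRB, where 33.9% of all probes rose and 28.5% fell. In NCB2-FRB 3 rose and 8 fell with the block, where 31.8% of all probes rose and 30.8% fell. Since so many probes passed with the block, these calls are not read as special to a module. That block added all 5 tail genes in NCB2-FRB, 1 up and 4 down, and the scaffold gene RGR1 in both strains, at -0.16 in Mot1-FRB (adjusted p = 0.0119) and -0.20 in NCB2-FRB (adjusted p = 0.00273), but 0 of the 4 kinase-module genes.

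Probes whose pattern over the 6 groups was most like that of MED6 were sought among 706 probes whose group means ranged over at least 0.79, or 50% of the MED6 range. The 5 with the highest correlation over the 6 group means were SIT1 (r = 0.993), FET3 (0.961), FTR1 (0.947), FRE1 (0.929) and MTH1 (0.919). Over the 12 arrays r was 0.946, 0.853, 0.866, 0.886 and 0.865. SIT1 encodes a siderophore transporter, FET3 and FTR1 the high-affinity iron uptake pair, FRE1 a reductase of iron and copper, and MTH1 a regulator of glucose sensing. The points share the wild-type reference and the 3 strains, and the correlations describe these arrays without a test.

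SIT1, the closest, stood at -0.09 in untreated and -0.18 in treated wild type, at 0.59 and 0.81 for Mot1-FRB, and at 0.56 and 0.66 for NCB2-FRB. The MED6 means of the 2 tagged strains were not separated beyond the pooled SE in either treatment. By group mean alone, the SIT1 order of the tagged groups was that of MED6. FET3 departed from it, since it was 0.92 in untreated and 0.75 in treated NCB2-FRB, where MED6 was higher with rapamycin. The 5 did not reach the MED6 range of 1.58, and FET3 came nearest with 1.43.

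**Figure D5:**
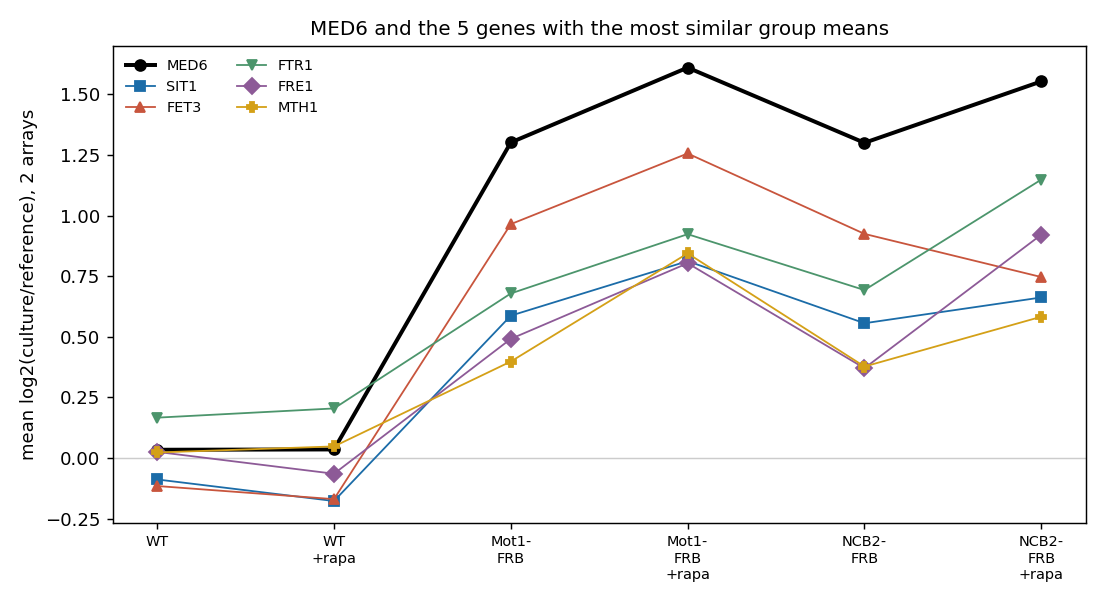
Group means of log2(culture/reference) over 2 arrays for MED6 and the 5 genes with the most similar pattern. All 6 genes are at or below 0.20 in wild type and higher in every tagged group, and MED6 keeps the highest level in each of those.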

How the data were processed

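The authors deposited scanner intensities of each spot and normalized intensities made by print-tip LOESS (span 0.4, no background subtraction) and a gene-specific dye-bias correction, per the labels' protocols. The deposited value table holds log2 of their normalized culture over reference, checked against those intensities (largest gap 4.99e-06).

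Values here came from the scanner intensities of 12776 gene spots per array. The tools were limma 3.58.1 and R 4.3.3. After normexp background correction (offset 50), a global loess curve was fitted to the gene spots of each array (span 0.3, 4 iterations). The sign of each ratio was set to culture over reference, the 2 spots were averaged, and 1 mean per group was fitted over 12 arrays (6 residual and 3 prior degrees of freedom) for 11 comparisons, two-sided, Benjamini-Hochberg over 6388 probes. Dim probes were kept. The number of arrays limits the precision. SRB and ROX symbols are those of the array annotation, and all 8 matched RefSeq R64. Figures were drawn with matplotlib 3.10.9 (pandas 2.3.3, Python 3.11.15). The fit was run on simulated data with noise drawn independently for each array. That simulation left out the shared deviations of same-lettered arrays, so it does not cover their effect on the calls.

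Letters a and b pair the arrays, since same-lettered deviations from the group means correlated at 0.482 to 0.817 over 15 pairs of groups. The letter is the dye in every group, so the block is a dye term. The members, gene lists and rule for named genes (members, other Mediator genes, the neighbours of MED6, the 5 most similar patterns, MOT1 and NCB2) were chosen with earlier results of these data known. HSP26, given as the leading rank, was chosen after its value was seen.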

Additional observations from a re-analysis of the deposited data

Results flagged for a closer look

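Of the 8 head genes, 2 responded to rapamycin differently in a tagged strain and in wild type by the test of the difference itself. The test called 1 of 8 for Mot1-FRB, against 19.4% of all probes, and 2 of 8 for NCB2-FRB, against 23.5%. These counts are not read as special to the head genes. For SRB2 the difference of the rapamycin effects was -0.48 ± 0.10 in Mot1-FRB minus wild type (limma adjusted p = 0.0125) and -0.75 ± 0.10 in NCB2-FRB minus wild type (adjusted p = 0.00129). SRB4 differed by -0.32 ± 0.076 in NCB2-FRB minus wild type (adjusted p = 0.0157). The wild-type effects were 0.04 for SRB2 and -0.11 for SRB4. All 3 differences use the dim array of treated wild type, and each was at least as far from 0 without it. All 3 calls were lost with external control centring and with median centring (limma adjusted p = 0.398, 0.147 and 0.894 in the order given). Loess followed by external control centring lost that of SRB2 in Mot1-FRB (adjusted p = 0.0968) and that of SRB4 (adjusted p = 0.0756).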

How the results depend on the processing

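The scaling within an array mattered most for the counts. External control centring without loess called 0 head genes for the rapamycin effects in both tagged strains and in both treated comparisons with wild type. It also called 0 for both differences from the wild-type response. Median centring called 0 in Mot1-FRB, 1 in NCB2-FRB and 0 for both differences from wild type. Loess followed by external control centring, an alternative chosen after seeing the data, called 1, 3, 0 and 1 in that order. Print-tip loess called 2 in Mot1-FRB and 2 for Mot1-FRB minus wild type. The replicate block called 3 for Mot1-FRB minus wild type, 5 for NCB2-FRB minus wild type, 3 for Mot1-FRB minus NCB2-FRB and 5 of 7 for treated NCB2-FRB against treated wild type. The authors' value table called 3, 5 and 1 in the first 3 of these. Over all probes it called 1956 up and 1665 down for rapamycin in Mot1-FRB, against 1403 and 977 in the main fit. Print-tip loess called 1558 and 1215 there. Shares of all probes for the differences between strains were not computed under these 2 settings. The counts are therefore not read as special to the head genes. Counts for the rapamycin effects in the tagged strains and for the differences from wild type include MED6 wherever it passed. MED6 was chosen on the values of those arrays. Over all probes, median centring called 376 up and 131 down in Mot1-FRB against 1403 and 977, external control centring 0 and 0, and loess with external centring 932 and 811. In NCB2-FRB median centring called 484 up and 212 down against 1454 and 1163.

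MED6 in the tagged strains moved beyond its SD with external control centring: untreated Mot1-FRB 1.37, untreated NCB2-FRB 1.37 (1.34 after loess), treated Mot1-FRB 1.38 and treated NCB2-FRB 1.42. Leaving out each array in turn gave 1.17 to 1.36, 1.20 to 1.33, 1.55 to 1.60 and 1.50 to 1.54 in the same order, the first of these beyond the SD without either untreated Mot1-FRB array. Without 1 array the counts were 1 to 3 for rapamycin in Mot1-FRB, 2 to 5 in NCB2-FRB, 0 to 0 in wild type, 1 to 2 for Mot1-FRB minus wild type, 1 to 3 for NCB2-FRB minus wild type, 0 to 0 for Mot1-FRB minus NCB2-FRB, and 1 to 3 and 3 to 4 of 7 for the treated comparisons. The replicate block changed no call of a head gene other than those given with it in the text. No called value changed sign under any alternative run. ROX3 in NCB2-FRB lost its call with print-tip loess (-0.16, adjusted p = 0.109) and array weights (adjusted p = 0.0729), SRB6 in Mot1-FRB with print-tip loess (adjusted p = 0.07) and with no background correction (adjusted p = 0.0519), and SRB4 with print-tip loess for rapamycin in Mot1-FRB (-0.17, adjusted p = 0.133) and in treated Mot1-FRB against treated wild type (-0.20, adjusted p = 0.0765). The causes were not tested. A group left with 1 array is assumed to vary like the others. Shares of all probes called without 1 array were not computed, so those counts are not read as special to the head genes.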
